A study of Mus musculus with 8 samples.

Results

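Genes for 9 transcription factors of the trophoblast, the outer lineage of the early embryo that builds the placenta, were followed across mouse embryonic stem (ES) cells and induced pluripotent stem (iPS) cells. They were Cdx2, Eomes, Elf5, Gata2, Gata3, Tfap2c, Tead4, Hand1 and Esx1, chosen by symbol, so 9 of the 18193 genes that a probe set with a single symbol named on the array. The platform annotation gave them 17 probe sets, none shared with another symbol, and 7 of the 9 had more than 1 probe set. The 8 Affymetrix arrays held 2 arrays each of 1 ES control line and of iPS lines 1, 2 and 3. All lines were male and C57BL/6, and were sampled at passage 7 to 10 from N2B27 medium with mouse LIF. Total RNA from Trizol was turned into biotin-labelled cRNA and hybridised. The iPS lines are described as integration-free, meaning that no reprogramming vector stayed in the genome. Every group is a single cell line, so a difference between groups is a difference between these lines, while the sources used here do not give their cell of origin or reprogramming method. Titles call the paired arrays biological replicates without saying whether they came from separate cultures, so p-values reflect array-to-array spread alone, some or all of which may be technical.

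In the blastocyst the trophectoderm separates from the pluripotent inner cell mass. TEAD4, with its Hippo pathway partner YAP, switches on Cdx2 in outer cells, and CDX2 and the pluripotency factor OCT4 (Pou5f1) repress each other's programmes. GATA3 acts beside CDX2, and Eomes, Elf5 and Tfap2c then sustain trophoblast stem cells, while HAND1 and ESX1 belong to differentiated placental cells. Several of these factors also work elsewhere: Eomes in the primitive streak, Tfap2c in pluripotent and germ cells, Gata2 in blood and Hand1 in mesoderm. ES cells rarely turn into trophoblast, and methylation of the Elf5 promoter is a known part of that barrier.

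The promoters of Cdx2 and Elf5 are shown because these genes, the first switch and the later gate of the lineage, were at or near the low-signal floor of the arrays. The sequences are the 250 bases before each annotated start, written 5′ to 3′ on the gene's own strand, from RefSeq on GRCm38.p6. Cdx2 lies on the minus strand (chr5:147307250-147307499), and Elf5 has 2 annotated starts on the plus strand (chr2:103411848-103412097 and chr2:103423818-103424067). Capitals in Cdx2 mark the octamer ATGCAAAT, the letters that OCT factors recognise, and capitals in Elf5 mark CATTCC, the reverse complement of the TEAD motif GGAATG.
Cdx2: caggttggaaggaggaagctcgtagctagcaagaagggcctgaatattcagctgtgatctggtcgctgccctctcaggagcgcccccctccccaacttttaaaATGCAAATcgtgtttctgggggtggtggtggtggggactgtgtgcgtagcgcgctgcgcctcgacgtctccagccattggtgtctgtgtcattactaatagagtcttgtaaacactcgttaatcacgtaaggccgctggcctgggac
Elf5, upstream start: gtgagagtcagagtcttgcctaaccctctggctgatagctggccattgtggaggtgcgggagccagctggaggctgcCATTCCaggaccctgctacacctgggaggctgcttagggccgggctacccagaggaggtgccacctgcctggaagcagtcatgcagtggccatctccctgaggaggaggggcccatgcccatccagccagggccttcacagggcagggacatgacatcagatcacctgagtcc
Elf5, downstream start: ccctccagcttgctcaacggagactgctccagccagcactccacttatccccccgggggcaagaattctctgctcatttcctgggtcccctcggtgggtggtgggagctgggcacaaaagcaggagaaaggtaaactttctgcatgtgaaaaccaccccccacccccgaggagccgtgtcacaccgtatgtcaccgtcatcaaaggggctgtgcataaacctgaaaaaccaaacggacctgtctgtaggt

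The octamer of Cdx2 ended 140 bases before the start, and 1.6% of all 32851 promoter windows of this length held it on either strand. The TEAD letters of Elf5 ended 168 bases before the upstream start, and 12.6% of windows held them on either strand. Cdx2 had 13 CpG pairs, the bases that DNA methylation marks, and the Elf5 windows had 2 and 8, against a median of 6 over all windows. The promoter table matched 6 of the 9 genes, and Tfap2c, Tead4 and Hand1 were not matched. A match of letters is a description and not a binding site, and neither methylation nor factor binding was measured in these data. Of the other letters searched on both strands, GCCNNNGGC, which AP-2 factors such as the product of Tfap2c recognise, occurred 3 times before Gata3 and once in the windows of Cdx2 and Gata2. It was found in 13.7% of all windows. The T-box letters AGGTGT (11.8% of windows) occurred in the upstream Elf5 window alone, and the GATA letters AGATAA (9.99%) in none of the 8.

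**Figure D1:**
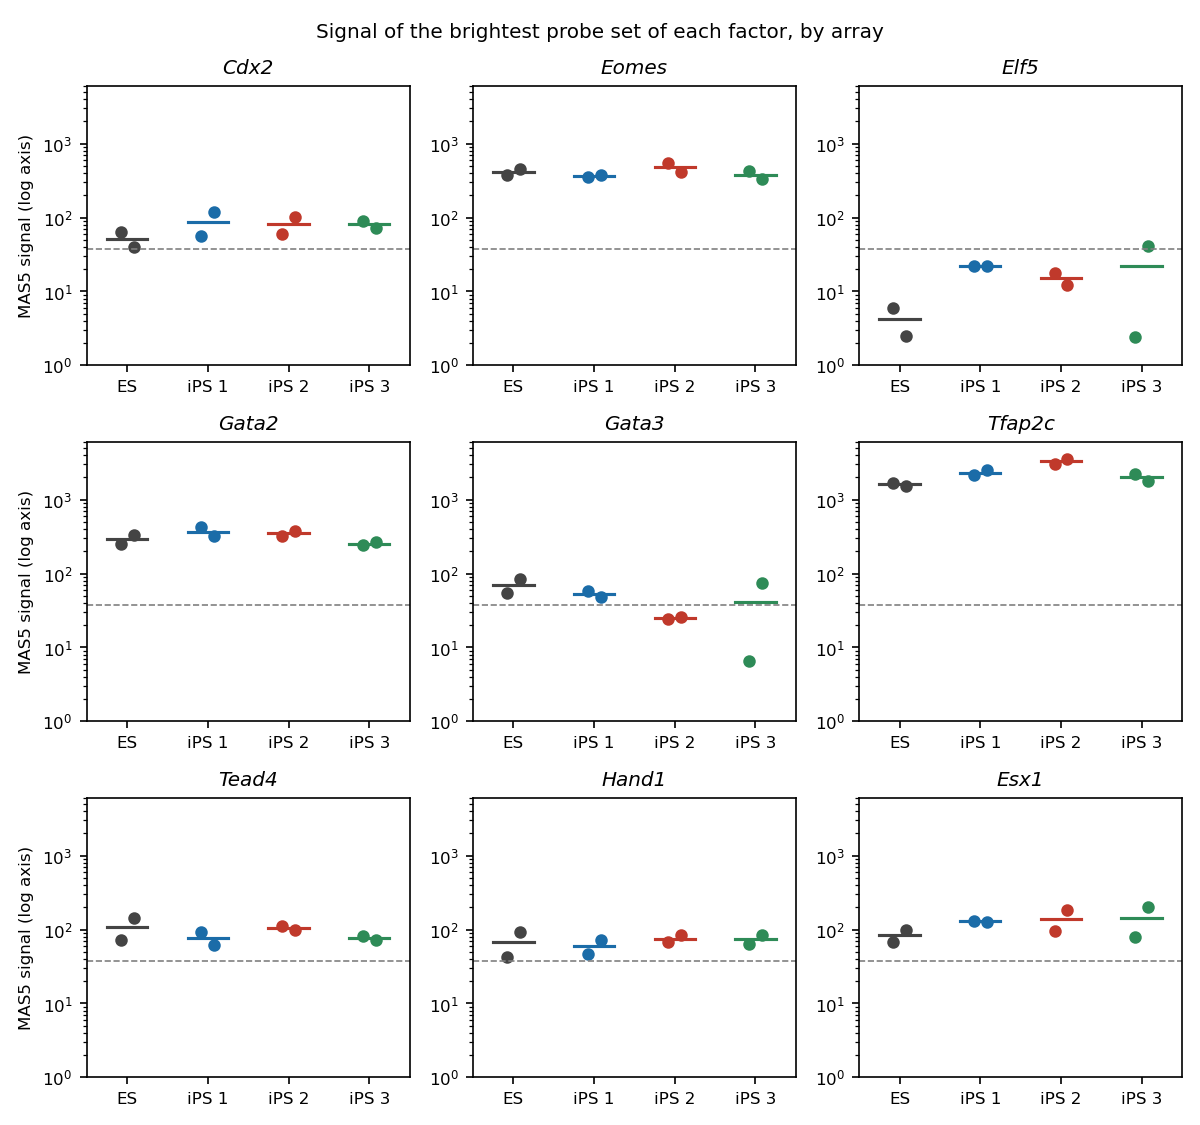
Linear MAS5 signal on a log axis for the brightest probe set of each of the 9 factors. Points are arrays, solid bars are means of 2 arrays per line, and the dashed line is the low-signal floor of 37.1; levels are not comparable between panels. Elf5 lies under the floor in 7 of 8 arrays, Gata3 crosses it, and Tfap2c is highest in iPS line 2.

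Signals were compared with a low-signal floor of 37.1, the 40th percentile of all signals, which stands in for detection calls. A gene was tested if a probe set exceeded the floor in at least 2 arrays. Of the 17 probe sets, 13 did so, and 8 of the 9 genes could be tested. The brightest probe set stood for each gene, on the scale log2(signal + 12), which understates the changes of dim genes. A gene is called where limma's adjusted p over all 14004 genes tested is under 0.05. Gata3 passed with 5 arrays above the floor, and the other 7 tested genes had all 8 arrays above it on the probe set used.

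Pluripotency markers were measured as a check of the labels. All 12 pluripotency markers, Pou5f1, Nanog and Sox2 among them, passed the filter on low signal. Their summed signal was 137116 to 144931 in ES cells, which line 1 (131213 to 138720) and line 2 (143673 to 145760) overlapped and line 3 (133216 to 137018) did not quite reach. In the mean of the lines 1 of the 12 fell, Utf1 (-0.43 ± 0.12), where 4.27% of all genes were higher and 3.03% lower. Against ES cells, Klf4 rose (0.30) and Utf1 (-0.86) and Pou5f1 (-0.23) fell in line 2, where 16.1% were higher and 10.6% lower. Tfcp2l1 fell in line 3 (-0.23), beside 1.58% higher and 2.57% lower. In line 1 limma called 0 of the 12, with 5 at an unadjusted p under 0.05, beside 1.21% and 1.12%. Replicate arrays correlated at 0.981 to 0.983 (Pearson r over the 14004 genes, a description since genes are not replicates). The arrays of iPS line 2 had 3'/5' ratios of the beta-actin control, a sign of RNA integrity, of 1.74 and 1.79, against 1.49 to 1.62 in the other 6. For the Gapdh control the ratios of line 2 (0.915 and 0.946) overlapped those of the other arrays (0.856 to 0.935). Line 2 also differed most from ES cells over all genes, with 26.7% called, against 2.34% for line 1 and 4.15% for line 3.

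Tfap2c, which encodes the AP-2 gamma factor and lies on chromosome 2, was the single factor called higher than in ES cells. In the mean of the lines Esx1 (0.59) and Cdx2 (0.57) had log2 differences close to its 0.62. Their 95% intervals were wider and held 0, and they were not called. Its main probe set, 1436392_s_at, read 1694 and 1532 in the ES arrays, 2126 and 2495 in line 1, 3056 and 3556 in line 2, and 2222 and 1793 in line 3. Every iPS array was above the ES pair, and the line 2 pair was above all other arrays. Of the 8 tested factors 1 was separated upwards in this way, as were 7.17% of all genes, and 0 were separated downwards, as were 5.75% of all genes. RNA of whole cultures cannot tell fewer cells of a type from less RNA per cell. The mean signal was 1613 ± 114 in ES cells, and 2311 ± 261, 3306 ± 354 and 2008 ± 304 in lines 1, 2 and 3 (SD, n = 2).

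Averaged over the iPS lines, Tfap2c was 1.53-fold higher than in ES cells (0.62 ± 0.09 on the log2 scale, ± SE here and below; limma adjusted p = 0.00154; 6 against 2 arrays). This made 1 of 8 factors higher and 0 lower, against 4.27% of all genes higher, 3.03% lower and 7.30% called in all. The call was lost in limma without its intensity trend (adjusted p = 0.0819). It rose 2.04-fold in line 2 (1.03 ± 0.11, limma adjusted p = 3.6e-05), where 16.1% of genes were higher and 10.6% lower. In line 1 it rose 1.43-fold (0.51 ± 0.11, limma adjusted p = 0.0341), where 1.21% were higher and 1.12% lower. In line 3 the difference was 1.24-fold (0.31 ± 0.11) and did not pass (limma adjusted p = 0.171, unadjusted p = 0.0186), with a 95% interval of 0.06 to 0.55, and in that line 1.58% of genes were higher and 2.57% lower. These comparisons share the same ES arrays. The line 1 call was lost on leaving out any 1 of the 4 arrays compared, with limma adjusted p from 0.057 to 0.234.

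Between iPS lines, Tfap2c was higher in line 2 than in line 1 by 0.51 ± 0.11 (limma adjusted p = 0.00588), where 23.3% of genes were called, 13.8% higher and 9.52% lower. That call was lost without line 1 replicate 1 (limma adjusted p = 0.0649) or line 2 replicate 2 (0.0589). It was lower in line 3 than in line 2 by a factor of 1.65 (-0.72 ± 0.11, limma adjusted p = 0.000398), where 31.2% were called, 12.1% higher and 19.0% lower. Line 3 against line 1 did not pass (-0.21 ± 0.11, limma adjusted p = 0.465), in a comparison where 1.39% of genes were called, 0.350% higher and 1.04% lower. The order was therefore line 2 above the rest, then line 1, line 3 and ES cells. Neither line 3 against line 1 nor line 3 against ES cells passed the adjusted threshold. For line 3 against ES cells the 95% interval (0.06 to 0.55) nevertheless lay above 0. The part of the higher beta-actin ratios of line 2 (1.74 and 1.79) in its Tfap2c signal was not tested. Without line 2, Tfap2c was still called in the mean of lines 1 and 3 (0.41, limma adjusted p = 0.0376).

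**Figure D2:**
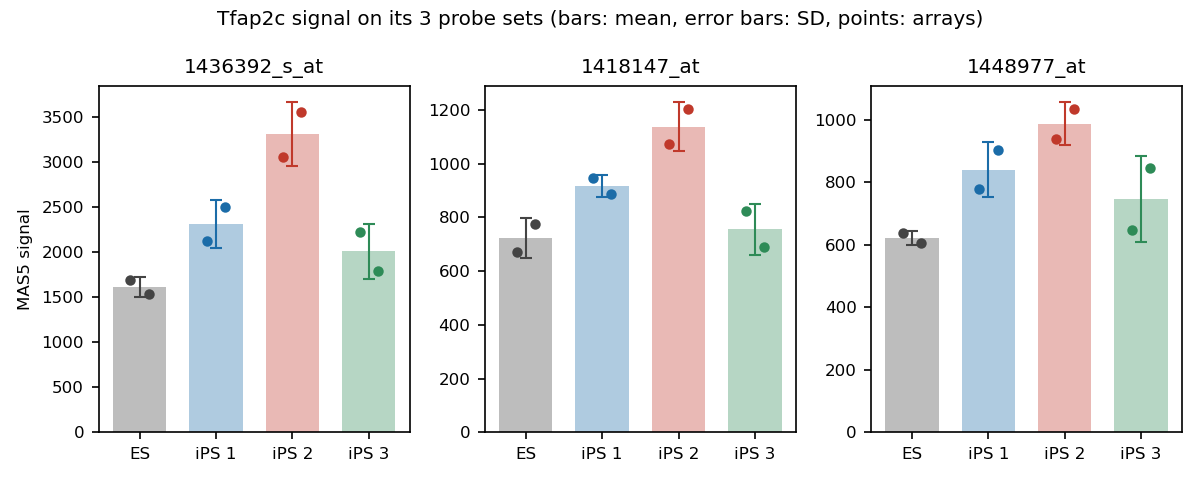
MAS5 signal of Tfap2c on each of its 3 probe sets, on linear axes that start at 0. Bars are means, error bars SD and points single arrays (n = 2 per line); line 2 has the highest mean on all 3, at 3306, 1138 and 988.

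The other Tfap2c probe sets gave the same order of line 2 first and line 1 next, with smaller folds. Probe set 1418147_at read 670.4 and 775 in ES cells, 946 and 887 in line 1, 1074 and 1202 in line 2, and 824 and 689 in line 3. Here line 3 overlapped ES cells. Probe set 1448977_at read 637 and 605 in ES cells, 778 and 903 in line 1, 939 and 1036 in line 2, and 649 and 845 in line 3. Here the iPS and ES arrays did not overlap.

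With every probe set tested as its own feature, all 3 were higher in line 2 than in ES cells (12.4% of probe sets were higher), by 2.04-fold, 1.57-fold and 1.58-fold. In the mean of the iPS lines 2 of the 3 were higher, against 2.70% of probe sets, and 1418147_at had a limma adjusted p of 0.0539. All 3 were lower in line 3 than in line 2 (15.2% of probe sets were lower), and 1 of 3 was higher in line 2 than in line 1 (10.1%). In lines 1 and 3 against ES cells 0 of 3 passed limma, against 0.746% and 0.874% of probe sets higher. For line 1 the main probe set had an adjusted p of 0.052 there. Probe sets of a gene measure the same RNA and are not replicates, and the _s_at suffix of the main one means that its probes can match more than 1 transcript.

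By profile over the 8 arrays, the genes nearest to Tfap2c were Tnnt1, for a troponin T of slow muscle, and Pbx3, for a homeodomain factor. Likeness was the root mean square difference between centred log2 profiles, 0.05 for Tnnt1 and 0.10 for Pbx3. Tnnt1 signals averaged 155 in ES cells and 211, 311 and 190.3 in lines 1, 2 and 3, and those of Pbx3 341 in ES cells and 420.2, 696 and 404 in the lines.

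None of the tested factors that start the trophectoderm passed the test. Tead4, the DNA-binding partner of YAP on chromosome 6, read 71.1 and 145 in the ES arrays on probe set 1426337_a_at, 93.3 and 62.0 in line 1, 111 and 97.9 in line 2, and 81.7 and 71.0 in line 3. The ES arrays spanned all but 2 of the iPS values, so the groups overlapped. The mean difference was -0.24 ± 0.26 (limma adjusted p = 0.663), with a 95% interval of -0.81 to 0.34. The other Tead4 probe set, 1460683_at, lay under the floor in 1 array of line 1 (17.7) and 1 of line 3 (14.6) while their partners read 104 and 94.0.

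Cdx2, the caudal-type homeobox gene on chromosome 5, read 63.6 and 39.6 in ES cells on probe set 1422075_at, 56.1 and 119 in line 1, 60.7 and 101 in line 2, and 90.6 and 72.5 in line 3. The upper ES array lay among the iPS arrays, so the groups overlapped. The differences from ES cells were 0.60, 0.54 and 0.58 in lines 1, 2 and 3, each ± 0.38, with limma adjusted p of 0.34 to 0.538. The mean over the lines was 0.57 ± 0.31, with a 95% interval of -0.10 to 1.24, which still holds a 2-fold change. The second Cdx2 probe set, 1422074_at, was under the floor in all 8 arrays, at 3.17 to 27.3.

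Gata3, a zinc finger factor gene on chromosome 2, read 54.3 and 84.0 in ES cells, 57.8 and 48.7 in line 1, 24.4 and 25.5 in line 2, and 6.51 and 75.4 in line 3. Both line 2 arrays and 1 line 3 array were under the floor, whereas the other line 3 array was close to the ES arrays. Differences from ES cells were -0.29, -1.11 and -0.99 in lines 1, 2 and 3, each ± 0.60, and none passed (limma adjusted p = 0.207 for line 2). Replicate arrays differed more here than for any other tested factor, with a pooled SD of 0.82 on the log2 scale against 0.16 for Tfap2c. On leaving out the line 3 array at 6.51, the difference of line 2 from ES cells had a limma adjusted p of 0.0493 and that of line 3 turned to 0.13. The nearest profiles were those of Zfp112 (0.25) and 1700088E04Rik (0.29).

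Gata2, the relative of Gata3 on chromosome 6, read 251 and 327 in ES cells on probe set 1450333_a_at, 419.6 and 317 in line 1, 321 and 375 in line 2, and 241 and 268 in line 3. Line 3 was below both other iPS lines in every array. Line 3 differed from line 1 by -0.50 ± 0.17 and from line 2 by -0.43 ± 0.17, and neither difference passed (limma adjusted p = 0.206 and 0.0781, unadjusted p = 0.0126 and 0.0273). Against ES cells the differences were 0.34, 0.27 and -0.17 in lines 1, 2 and 3, each ± 0.17. The dimmer Gata2 probe set, 1428816_a_at, read 93.6 and 108 in ES cells and 109 to 174 in the iPS arrays. These groups did not overlap, though by less than 1 signal unit, and the mean difference of 0.37 did not pass (limma adjusted p = 0.314).

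**Figure D3:**
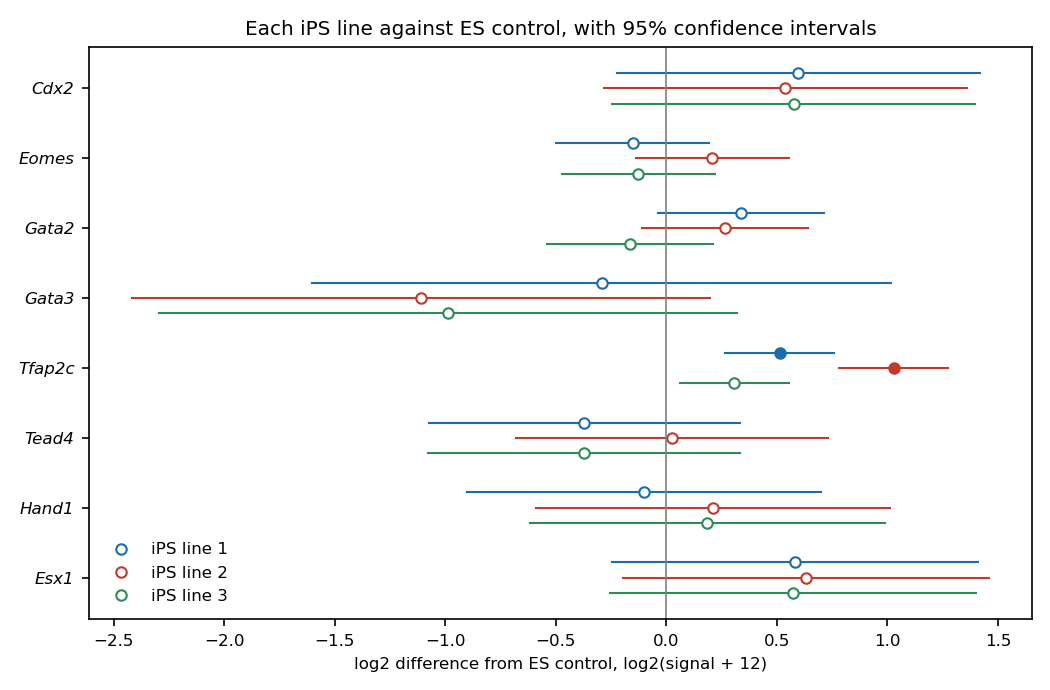
Log2 difference of each iPS line from ES control on the scale log2(signal + 12) for the 8 tested factors. Points are limma estimates (n = 2 arrays per line), lines are 95% confidence intervals and filled points passed the test; these are Tfap2c in lines 1 and 2.

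Among the factors that sustain trophoblast stem cells, Eomes was measured well above the floor and Elf5 was not. Eomes, a T-box gene on chromosome 9, read 376 and 449.6 in ES cells on probe set 1426001_at, 357 and 381 in line 1, 548 and 414 in line 2, and 419.5 and 336 in line 3. The groups overlapped, and the mean difference was -0.02 ± 0.13 (limma adjusted p = 0.94), with a 95% interval of -0.31 to 0.26. Line 2 differed from line 1 by 0.36 ± 0.16, and line 3 from line 2 by -0.33 ± 0.16, and neither difference passed (limma adjusted p = 0.127 and 0.139). Without line 2 replicate 2, the lower line 2 array, both passed (0.56 and -0.53, limma adjusted p = 0.0498 and 0.0459). The second Eomes probe set, 1435172_at, lay between 327 and 427 with a mean difference of 0.02.

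Elf5, an ETS factor gene on chromosome 2, read 6.06 and 2.52 in ES cells on its brighter probe set, 1419556_at, 22.3 in both arrays of line 1, 17.7 and 12.3 in line 2, and 2.43 and 41.5 in line 3. Only the array at 41.5 exceeded the floor, and the other Elf5 probe set stayed at 1.19 to 33.1. Values this dim have no reliable order, so no fold or test is given for Elf5. The printed Elf5 promoter windows held 2 and 8 CpG pairs. Of all windows 29% held 2 or fewer and 59.7% held 8 or fewer, and a link to the signal was not tested.

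The placental factors were dim and overlapped between groups. Hand1, a basic helix-loop-helix gene of giant cells on chromosome 11, read 42.5 and 92.0 in ES cells on probe set 1417525_at, 46.3 and 72.2 in line 1, 67.3 and 83.6 in line 2, and 63.4 and 85.1 in line 3. All 6 iPS values lay between the ES values, and the mean difference was 0.10 ± 0.30 (limma adjusted p = 0.892). The second Hand1 probe set, 1448750_at, was under the floor throughout. It read 3.45 and 6.54 in ES cells and 7.82 to 25.6 in iPS arrays, values below the floor that were not tested.

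Esx1, a homeobox gene on the X chromosome, read 67.4 and 99.7 in ES cells, 132 and 126 in line 1, 96.2 and 185 in line 2, and 79.0 and 203 in line 3. Line 1 lay above both ES arrays, while lines 2 and 3 each had 1 array between them. The differences in lines 1, 2 and 3 were 0.58, 0.63 and 0.57, each ± 0.38, and none passed (limma adjusted p = 0.259 to 0.556). The mean was 0.59 ± 0.31, with a 95% interval of -0.08 to 1.27.

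As a group, 5 of the 8 tested factors had a mean difference above 0, with a median of 0.12 against 0.02 for all genes. The medians by line were 0.12, 0.24 and 0.03, against 0.01, 0.07 and -0.01 for all genes. In line 3 limma called 0 of 8 factors against ES cells and 0 of 8 against line 1, and 1 of 8 had an unadjusted p under 0.05 in each. Of all genes 4.15% and 1.39% were called in these comparisons.

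Other genes of the trophectoderm and trophoblast stem cells went both ways. Of 18 tested, 5 rose and 3 fell in the mean of the iPS lines, where 4.27% of all genes were higher and 3.03% lower. Bmp4 was among those that fell (-0.91 ± 0.12), and it is counted again among the primitive streak markers below. Esrrb and Fgf4 of this list are also pluripotency markers. The median was -0.23, against 0.02 for all genes. Krt8 (1.17 ± 0.06) and Krt18 (0.98 ± 0.06), keratins of simple epithelia, and Elf3, an epithelial ETS factor (0.82 ± 0.11), rose. Ets2, an ETS factor of trophoblast stem cell renewal, fell (-0.68 ± 0.08), by -0.49, -0.54 and -1.02 in lines 1, 2 and 3. Elf3 was at 0.57, 1.87 and 0.04 in the same lines, and without line 2 its call was lost (0.30). Without line 2 the counts were 2 higher and 1 lower, where 491 of 14004 genes were called, against 1022 with line 2. In line 1, 3 rose and 1 fell, where 1.21% of all genes were higher and 1.12% lower. In line 2, 6 rose and 5 fell, beside 16.1% and 10.6% of all genes, and in line 3, 2 rose and 1 fell, beside 1.58% and 2.57%.

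Of 13 listed genes of differentiated trophoblast with a probe set, 8 were tested, and Prl8a9 and Pparg were under the floor in all 8 arrays. In the mean of the lines Phlda2, an imprinted gene that limits placental growth, rose (0.77 ± 0.07). Tfpi, an inhibitor of coagulation, fell (-0.36 ± 0.09). The median was -0.27, against 0.02 for all genes, of which 4.27% were higher and 3.03% lower. The Tfpi call was lost in 8 of the 20 alternatives run, among them without line 2 (-0.20) and without ES replicate 1 (-0.19), and in line 1 Tfpi stood at 0.22. Plet1 (-0.28 ± 0.09) and Dlx3 (-0.86 ± 0.48) did not pass.

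In the Hippo pathway, which feeds TEAD4, the median of 18 tested genes was -0.03 in the mean of the lines, against 0.02 for all genes. Of the 18, 1 rose and 0 fell, where 4.27% of all genes were higher and 3.03% lower. This was Ccn2, a target of YAP and TEAD factors (0.20 ± 0.04), and its call was lost in 6 of the 20 alternatives, among them without line 2 (0.01) and without either ES array (0.20 and 0.21). Wwtr1, for the YAP relative TAZ (-0.17 ± 0.06), Yap1 (-0.15 ± 0.05) and the kinase gene Lats2 (-0.61 ± 0.22) did not pass, though Wwtr1 passed without line 2 (-0.37). In that setting 0 of the 18 rose and 2 fell, and 491 of 14004 genes were called. In line 2 itself 7 rose and 3 fell, where 16.1% of all genes were higher and 10.6% lower. In line 3, 0 rose and 3 fell, beside 1.58% and 2.57% of all genes. In line 1 limma called 0 of 18, with 2 at an unadjusted p under 0.05, beside 1.21% and 1.12%. The part of the beta-actin ratios in the line 2 count was not tested.

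Paralogues of the factors were tested for 12 of 19 genes with a probe set, with Cdx4, Tbr1, Ehf and Tfap2b under the floor in all 8 arrays. Elf3 (above) rose and Tbx3, a T-box gene of the naive pluripotency network, fell (-0.35 ± 0.05). Both calls are for the mean of the lines, where 4.27% of all genes were higher and 3.03% lower. Tfap2a, which encodes AP-2 alpha, read 65.5 in ES cells and 30.2 to 51.1 in the iPS line means, and did not pass (-0.67 ± 0.35, limma adjusted p = 0.304). Tead2 (0.15 ± 0.08) did not pass either. Without line 2, 0 of these 12 rose and 1 fell by limma, where 491 of 14004 genes were called.

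**Figure D4:**
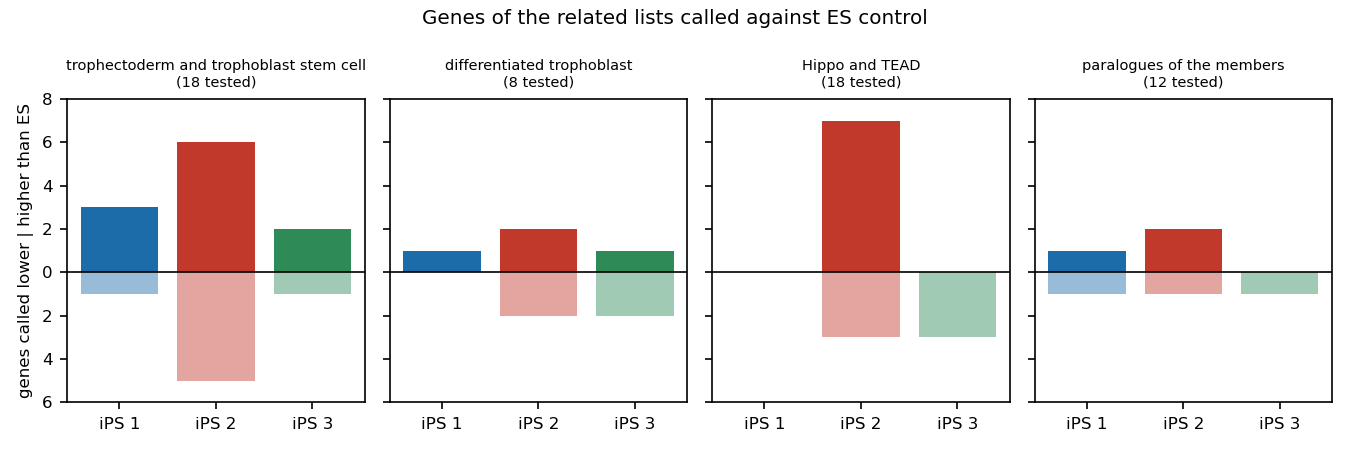
Number of genes per related list called higher (full colour, above 0) or lower (pale, below 0) than ES control in each iPS line. Line 2 has the most calls in each list, 11 of 18, 4 of 8, 10 of 18 and 3 of 12, against 26.7% of all genes called in that line.

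Markers of other lineages were followed because several of these factors are shared with them. In the mean of the lines 4.27% of all genes were higher and 3.03% lower. Of 9 tested primitive endoderm markers limma called 0 in that mean, with 1 at an unadjusted p under 0.05. Afp was under the floor in all 8 arrays. Of 8 tested primitive streak markers Bmp4 (above) fell, and Wnt3 and Lhx1 were under the floor in all 8 arrays. Without line 2 the calls of Utf1 and Bmp4 were lost. The summed streak signal was 762 to 802 in ES cells, 606 to 635 in line 1, 446 to 456 in line 2 and 670.4 to 788 in line 3, and Bmp4 itself averaged 391 in ES cells and 84.1 in line 2. Of 5 tested neural markers 1 rose in the mean of the lines, Map2 (0.86 ± 0.14), and 4 had an unadjusted p under 0.05. Of these 4, Sox1 went down (-0.92 ± 0.35), by -0.62, -0.77 and -1.37 in lines 1, 2 and 3, and was not called. Under the alternatives the count called higher ran from 0 to 3, with 3 without line 2, where 491 of 14004 genes were called. By line, Map2 (0.76) and Tubb3 (0.86) rose in line 1, Map2 (1.14) in line 2, and Tubb3 (0.75) and Pax6 (1.20) in line 3. Of all genes 1.21%, 16.1% and 1.58% were higher in lines 1, 2 and 3. The summed neural signal was 605 to 729 in ES cells, and 986 to 1065, 719 to 793 and 972 to 989 in lines 1, 2 and 3. Of 10 fibroblast markers Col1a1, Postn, Dcn and Twist2 were under the floor in all 8 arrays, and limma called 0 of the 5 tested in the mean of the lines, with 0 at an unadjusted p under 0.05. In line 2 it called 1 of 5, Pdgfrb (1.68, limma adjusted p = 0.00169), which averaged 57.1 in ES cells and 212 there. Of all genes 16.1% were higher in line 2 and 10.6% lower. Thy1 (0.73) and Lum (0.67) lay above ES cells there and Col1a2 (-0.05) and Twist1 (-0.19) below, and none of these was called. The summed signal of the 10 was 251 to 285 in ES cells, 293 to 304 in line 1, 278 to 306 in line 3 and 438 to 516 in line 2, where Tfap2c was highest, and its part in that result was not tested.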

How the data were processed

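Deposited values are MAS5 intensity signals on a linear scale, 1 per probe set, from the authors, per the submitters' processing notes. The sources used here give no MAS5 version, scaling target or detection calls. The table held 45101 probe sets, 64 of them controls. The 2%-trimmed mean was 500.004 in each array, so no new scaling was applied. The platform annotation named 34945 probe sets with 1 symbol, 932 with several and 9160 with none, and only the first kind was used. A group-means model over all 8 arrays was fitted in limma 3.58.1 under R 4.3.3, with lmFit and trended eBayes (4 residual degrees of freedom, 12.3 with moderation). Its tests were two-sided, with Benjamini-Hochberg adjustment within each of 7 comparisons, and the procedure was tested on simulated data. Named are all 9 factors, and up to 4 genes of each related list with the smallest adjusted p in the mean comparison. Also named are the 2 nearest profiles of each factor spanning over 1 log2 unit between line means, and marker genes called against ES cells. Marker genes called only between iPS lines are not all named. The factors and lists were chosen with earlier results of these data known. Alternatives covered normalization, pseudocount, filter, probe set choice, variance trend, replicate block and arrays or line 2 left out. With 2 arrays a line, their number limits precision.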

Additional observations from a re-analysis of the deposited data

Results flagged for a closer look

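The difference of Tfap2c from ES cells was not alike in the 3 iPS lines. It was larger in line 2 than in line 1 by 0.51 on the log2 scale, and that of line 3 against line 2 was -0.72, both by limma's test of the difference between lines. All 3 Tfap2c probe sets passed for line 3 against line 2, and 1 of 3 for line 2 against line 1. No line has enough arrays for a search for single aberrant arrays.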

How the results depend on the processing

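The log2 differences of the tested factors and of the genes named from the 4 related lists in the mean comparison were recomputed under alternatives, which gave 1092 values: 1023 kept direction and call, 35 lost the call, 7 gained it and 27 changed sign. The number of factors called in the mean of the lines fell to 0 without the variance trend. It was also 0 with line means as samples, but limma called 0 of 14004 genes in that design, which has a single ES value, and 0 factors had an unadjusted p under 0.05, so it says nothing about stability. For line 1 it fell to 0 with no filter, with every probe set tested and without the variance trend, with 1 factor at an unadjusted p under 0.05 in each. For line 2 against line 1 it fell to 0 without the variance trend. With no filter and with every probe set tested more features were tested (18193 and 25733). The cause of the lost calls was not tested in any of these settings. Leaving out each array in turn gave 0 to 1 factors for line 1, 1 to 2 for line 2, 0 to 1 for line 2 against line 1 and 1 to 2 for line 3 against line 2. Tfap2c kept its direction in all alternatives run, from 0.41 to 0.69 in the mean and from 0.78 to 1.14 in line 2.

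Sign changes were limited to factors that were not called and to Tead2. Tead4 in line 2 was -0.11 after quantile normalization, -0.062 after median centring and -0.13 as the mean of all probe sets, and Gata2 in line 3 was 0.0075 as that mean. Leaving out 1 array moved the mean of the lines from -0.15 to 0.10 for Eomes, from -0.036 to 0.33 for Gata2, from -0.70 to 0.22 for Tead4, from -0.37 to 0.56 for Hand1 and from -0.022 to 0.32 for Tead2. Line 1 moved from -0.83 to 0.087 for Tead4 and from -0.57 to 0.36 for Hand1, and line 2 from -0.43 to 0.48 for Tead4 and from -0.26 to 0.68 for Hand1. Line 3 moved from -0.28 to 0.029 for Eomes, -0.35 to 0.016 for Gata2, -2.11 to 0.13 for Gata3, -0.83 to 0.087 for Tead4, -0.28 to 0.65 for Hand1 and -0.049 to 1.19 for Esx1. Gata2 in line 2 against line 1 moved from -0.27 to 0.12, and Eomes in line 3 against line 1 from -0.13 to 0.18.

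Deviations of arrays with the same replicate number correlated at -0.01 to 0.03 over all genes tested, so no shared shift was seen. A pairing that touches few genes would not show in this correlation. With the replicate block 1 factor was still called in the mean of the lines, and 1034 genes against 1022. Median centring moved the median of all genes by -0.12 for line 2 against line 1 and by 0.13 for line 3 against line 2. The factors near the floor (Cdx2, Gata3, Tead4, Hand1 and Esx1) were measured with wide intervals, and Elf5 could not be tested.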

Other observations

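Trophoblast genes beyond the 9 factors went both ways in iPS line 2 against ES cells, where 16.1% of all genes were higher and 10.6% lower. Of 18 trophectoderm and trophoblast stem cell genes 6 rose and 5 fell. Of 8 genes of differentiated trophoblast 2 rose and 2 fell. The genes named here were picked after their values were seen. Ascl2, which encodes a basic helix-loop-helix factor of the placental spongiotrophoblast, averaged 87.9 in ES cells and 64.0, 286 and 75.5 in lines 1, 2 and 3. It was higher than in ES cells in line 2 (1.57 ± 0.26, limma adjusted p = 0.000777) and lower in line 3 than in line 2 (-1.77, limma adjusted p = 0.00025). Krt7, a keratin of trophoblast and other simple epithelia, averaged 131 in ES cells and 212, 511 and 105 in the 3 lines, with -2.16 for line 3 against line 2 (limma adjusted p = 1.1e-06). Id2, for an inhibitor of helix-loop-helix factors, averaged 834 in ES cells and 991, 2032 and 764 in the 3 lines, with -1.39 for line 3 against line 2 (limma adjusted p = 1.0e-06).

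Genes that fell in line 2 included Ddah1 (-0.85), Rhox6 (-0.83), Klf5 (-0.29), Plac1 (-1.36) and Tfpi (-0.69). Bmp4, for a signalling protein able to push pluripotent cells towards trophoblast, fell too, averaging 391 in ES cells and 262, 84.1 and 363 in the 3 lines. It was lower than in ES cells in line 2 (-2.07 ± 0.15, limma adjusted p = 1.3e-06) and higher in line 3 than in line 2 (1.96). The fibroblast marker Pdgfrb was also highest in line 2, at 212 against 57.1 in ES cells. The other fibroblast markers tested were not called in line 2. Against ES cells Col1a2 (-0.05) and Twist1 (-0.19) lay below there, and Thy1 (0.73) and Lum (0.67) above. The part of the raised beta-actin ratios of line 2 (1.74 and 1.79) in its values was not tested. Krt8 was ordered differently, with 2586 in line 1 above 1574 in line 2.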
